A study of Homo sapiens with 6 samples.

Results

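TCam-2, an established human cell line from a testicular germ cell tumour of seminoma type, was measured after transduction with FLAG-tagged GFP (GFP) and without any transduction (WT), with 2 libraries in each group. Both groups served as negative controls in a study of RBMXL3, which encodes an RNA-binding protein related to RBMX. Another 2 libraries, from TCam-2 transduced with FLAG-tagged RBMXL3 (RBMXL3), shared the estimate of the spread and is given beside the 2 controls. The genes compared were those with a normalised read count (recovered reads divided by 1 size factor per library) of at least 50 in at least 2 of the 4 GFP and WT libraries. This rule kept 12447 of 62700 gene rows, 11528 of them protein coding in GENCODE 29, and these held between 99.5% and 99.6% of each library's reads. At the edge of the rule, BRME1, ZNF837 and ACAN were just inside with a second-highest value of 50.3, and NMRK2, MED31 and BATF3 were just outside with 49.95. Of the genes kept, 11894 reached 50 in all 4 libraries, 88 passed through GFP alone and 46 through WT alone.

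All cells were grown in RPMI medium with fetal bovine serum, and polyadenylated RNA was sequenced from stranded libraries. The labels do not give the vector, its promoter, any drug selection, or whether the transduced cells were 1 clone or many. The entry of a vector, the outgrowth of transduced cells, the tag and GFP itself therefore cannot be told apart in GFP against WT. The level of the GFP transgene was not analysed here. Nothing in the labels says that the libraries came from separate cultures, so p-values measure only the spread between these libraries, which may be technical.

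Transduction brings a foreign gene into a cell, usually with a viral vector that inserts it into the genome. Cells can answer foreign nucleic acid through RNA and DNA sensors that switch on interferon genes, and they can silence inserted DNA through the HUSH complex, TRIM28 with SETDB1, and DNA methylation. Making and handling a foreign protein can draw on chaperones, on ribosomes and on the integrated stress response, in which ATF4 turns on genes of amino acid supply. Seminoma cells resemble early germ cells and keep pluripotency factors such as POU5F1 and NANOG, and germ cell tumours can also hold cells of placental (trophoblast) character, which make the hormone chorionic gonadotropin.

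The libraries held 29318007 and 28604436 recovered reads in WT and 26776703 and 23080795 in GFP, and RBMXL3 itself had 0 reads in all 4, which allows at most 3.18 normalised reads (3 reads in the shallowest library, counting error only). The seminoma markers POU5F1, NANOG, TFAP2C, SOX17, PRDM1, KIT, PDPN, ALPL, LIN28A, L1TD1 and NANOS3 all passed the level rule. Replicates differed by a median of 0.12 in WT and 0.18 in GFP (absolute log2 difference over the genes compared), against 0.16 for GFP replicate 2 and WT replicate 2. GFP replicate 2 was thus nearer to WT replicate 2 than to GFP replicate 1. The 2 RBMXL3 libraries lay closer together, with a median difference of 0.07 over the same genes. The main test of GFP against WT took its spread from all 6 libraries, and so also from this closer pair. The GFP replicates were at least 2-fold apart (1 on the log2 scale) in 24 genes, all lower in GFP replicate 1, and 13 of the 24 were mitochondrial genes or their nuclear copies. The mitochondrial share of the reads was 1.31% in GFP replicate 1 and 2.02% to 3.02% in the other 5 libraries.

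GFP differed from WT in 505 of the 12447 genes (4.06%), 236 higher (1.9%) and 269 lower (2.16%), at an adjusted p under 0.05 in limma. Of all 14292 genes tested, 3.67% were called, 1.76% higher and 1.91% lower. An unadjusted p under 0.05 was held by 2966 of the 12447 genes, the count to set beside those of the lists below. The differences were small. The median absolute log2 change of the called genes was 0.55, and 18 of the 505 changed by at least 1 on the log2 scale, 12 higher and 6 lower. Over all 12447 genes the log2 change had a median of -0.01 and an SD of 0.25. The 2 GFP libraries lay outside the 2 WT libraries on 1 side in 49.3% of the genes, called or not, so a lack of overlap on its own says little here. The number of calls rested on single libraries: limma called 0 genes without WT replicate 1, with 1700 at an unadjusted p under 0.05, 20 without WT replicate 2, 1134 without GFP replicate 1 and 2715 without GFP replicate 2. Where a list below has counts with 1 library left out, that library is from GFP. The fits without a WT library called far fewer genes. With only the 4 GFP and WT libraries in the fit, 143 genes were called (1.15%), 67 higher (0.538%) and 76 lower (0.611%). That fit took no spread from the closer RBMXL3 pair. The part of this pair in the difference between 505 and 143 calls was not tested. On the recovered reads edgeR called 452 (3.63%), 216 higher (1.74%) and 236 lower (1.9%), and DESeq2 called 694 (5.58%), 352 higher (2.83%) and 342 lower (2.75%). With TPM summed per gene, and with no filter on low values, limma called 0 genes, with 1951 and 2688 at an unadjusted p under 0.05.

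**Figure D1:**
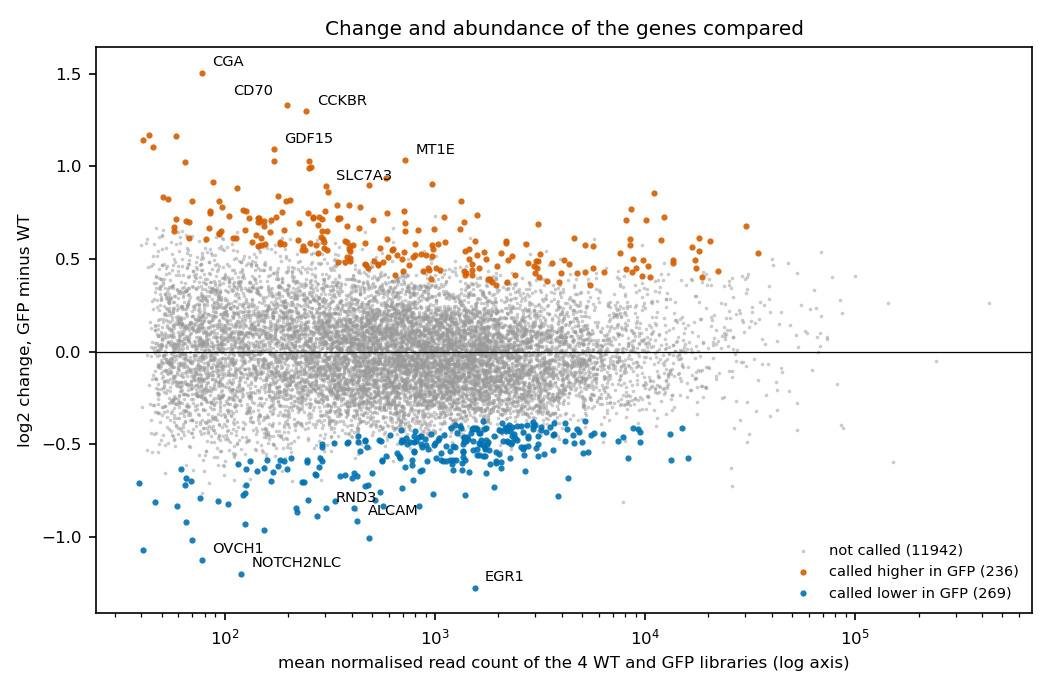
Log2 change of GFP against WT (vertical axis) against the mean normalised read count of the 4 WT and GFP libraries (horizontal log axis) for the 12447 genes, 1 point a gene. The 236 genes called higher and the 269 called lower lie at every abundance, with CGA at 1.505 and EGR1 at -1.27 as the extremes.

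The stretches of 250 bases before the RefSeq transcription start (GRCh38.p14) are shown for the 3 largest rises and 3 largest falls with a promoter entry. These came from called genes with groups that did not overlap and a mean of at least 100 in the higher group. CD70 had no entry. The sequences run 5′ to 3′ on the gene's strand, and capitals mark matches, on either strand, to the motifs searched. These were the CRE (TGACGTCA), AP-1 (TGANTCA), the TATA box (TATAAA), the E-box (CACGTG), the CCAAT box (CCAAT), the GC box (GGGCGG), EGR sites (GCGTGGGCG or GCGGGGGCG), the ISRE, the ARE (TGACNNNGC) and the CArG box.
CGA (chr6:87095107-87095356, minus strand): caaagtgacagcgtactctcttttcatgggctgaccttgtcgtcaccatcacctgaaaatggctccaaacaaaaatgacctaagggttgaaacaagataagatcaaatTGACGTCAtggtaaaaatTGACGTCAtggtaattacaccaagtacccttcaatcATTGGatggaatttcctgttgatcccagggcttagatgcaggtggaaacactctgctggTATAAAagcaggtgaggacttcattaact
CCKBR (chr11:6259588-6259837, plus strand): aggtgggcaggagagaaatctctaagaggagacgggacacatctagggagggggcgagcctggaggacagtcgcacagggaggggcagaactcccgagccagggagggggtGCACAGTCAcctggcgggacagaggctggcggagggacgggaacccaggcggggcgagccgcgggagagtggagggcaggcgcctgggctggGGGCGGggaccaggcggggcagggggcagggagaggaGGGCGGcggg
GDF15 (chr19:18385908-18386157, plus strand): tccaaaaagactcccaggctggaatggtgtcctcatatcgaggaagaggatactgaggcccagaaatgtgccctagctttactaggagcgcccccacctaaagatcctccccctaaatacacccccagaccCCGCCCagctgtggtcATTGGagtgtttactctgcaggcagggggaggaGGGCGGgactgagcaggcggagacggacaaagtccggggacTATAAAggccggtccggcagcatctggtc
EGR1 (chr5:138465229-138465478, plus strand): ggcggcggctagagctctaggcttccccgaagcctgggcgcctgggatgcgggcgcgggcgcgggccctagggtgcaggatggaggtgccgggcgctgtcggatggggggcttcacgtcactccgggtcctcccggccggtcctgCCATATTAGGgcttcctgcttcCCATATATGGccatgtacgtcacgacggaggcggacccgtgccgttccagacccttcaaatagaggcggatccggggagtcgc
NOTCH2NLC (chr1:149390371-149390620, plus strand): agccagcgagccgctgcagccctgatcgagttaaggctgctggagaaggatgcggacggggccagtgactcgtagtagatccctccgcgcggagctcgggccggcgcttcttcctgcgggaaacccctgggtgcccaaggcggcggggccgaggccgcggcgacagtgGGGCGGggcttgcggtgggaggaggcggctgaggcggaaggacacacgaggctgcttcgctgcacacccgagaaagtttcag
OVCH1 (chr12:29497687-29497936, minus strand): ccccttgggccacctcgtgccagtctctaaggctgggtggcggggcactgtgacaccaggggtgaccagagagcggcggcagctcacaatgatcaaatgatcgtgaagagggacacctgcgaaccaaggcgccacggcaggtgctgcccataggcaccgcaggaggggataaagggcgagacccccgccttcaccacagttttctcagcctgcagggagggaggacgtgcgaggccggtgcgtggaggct

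The CGA window held 2 copies of the CRE, the site bound by CREB family factors, 142 and 124 bases before the start, and a TATA box at 29. A CRE was found in 1.65% of 35114 promoter windows of the same length. The EGR1 window held 2 CArG boxes, the sites bound by serum response factor, at 105 and 83 bases, and 1.16% of all windows held a CArG box. The GDF15 window held a TATA box at 29, a CCAAT box and 2 GC boxes. CCKBR had 2 GC boxes and an ARE match, NOTCH2NLC had 1 GC box, and OVCH1 had no match to these letters. GC boxes were found in 42.6% of all windows, CCAAT boxes in 32.0%, ARE matches in 10.9% and TATA boxes in 10.7%. The shares were different in the 9379 windows of genes compared but not called. There a CRE was found in 3.0%, a CArG box in 0.917% and a GC box in 69.2%. CCAAT boxes were found in 35.7% of them, ARE matches in 12.1% and TATA boxes in 4.63%. A match is a description of the letters and not a measured binding site.

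Genes are named here among called genes with groups that did not overlap and a mean of at least 100 in the higher group. By this rule the largest rise was CGA (ENSG00000135346.9; chromosome 6, 87085498 to 87095406, minus strand), the shared alpha subunit of the glycoprotein hormones. Its normalised read counts were 42.3 and 17.6 in WT and 135 and 115 in GFP, a log2 change of 1.505 with an SE of 0.24 (limma adjusted p = 0.0132). CGA met the level rule through GFP alone, which favours a rise. Both GFP libraries were above both WT libraries, as the rule required, and the RBMXL3 libraries were higher still at 169.9 and 292. CD70, the TNF family ligand of CD27 (chromosome 19, 6583183 to 6604103), stood at 102.4 in both WT libraries and at 311 and 277 in GFP, a log2 change of 1.33 (SE 0.13, adjusted p = 0.00107). CCKBR, the receptor for gastrin and cholecystokinin (chromosome 11, 6259736 to 6272127), had 126 and 133 in WT and 418 and 299 in GFP, a log2 change of 1.30 (SE 0.16, adjusted p = 0.00434). The GFP and WT libraries did not overlap for either gene, as the rule required. The RBMXL3 libraries were above GFP for CD70, at 456 and 473, but between WT and GFP for CCKBR, at 209 and 222. GDF15, a secreted stress cytokine, had 113 and 87.3 in WT and 208 and 273 in GFP, a log2 change of 1.09 (SE 0.16, adjusted p = 0.011).

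The other rises of the 15 largest with a mean of at least 100 in GFP were between 0.88 and 1.03 on the log2 scale and came from several kinds of gene. Secreted and matrix proteins were TINAGL1 and the collagen-binding proteoglycan LUM, at 79.6 and 65.4 in WT and 131 and 179 in GFP. At the cell surface were CSF1R, the receptor of macrophage colony-stimulating factor (53.3 and 52.9 in WT, 142 and 103 in GFP), the cationic amino acid transporter SLC7A3 (182 and 228 in WT, 407 and 393 in GFP) and the phosphatase-related membrane protein PLPPR3. Inside the cell were FOXH1, the partner of SMAD proteins in Nodal signalling (399 and 391 in WT, 777 and 779.8 in GFP), the mitochondrial gluconeogenic enzyme PCK2, the mTORC1 inhibitor DDIT4, the gamma-synuclein gene SNCG and the metallothionein MT1E. The last was RPS27AP16, a ribosomal protein pseudogene whose reads cannot be told from those of its parent gene, and its summed TPM was 0.185 in WT and 0.189 in GFP (group means), below the filter for a test. An annotated gene on the other strand, KIFC2, covers 31.6% of the exon length of FOXH1, and whether counting used strand is not given in the sources used here.

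By the same rule the largest fall was EGR1 (ENSG00000120738.8; chromosome 5, 138465490 to 138469315, plus strand), a zinc finger factor rapidly induced by serum and growth factors. Its normalised read counts were 2419 and 1966 in WT and 952 and 829.6 in GFP, a log2 change of -1.27 with an SE of 0.12 (limma adjusted p = 0.00107). The GFP libraries were below the other 4, and the RBMXL3 libraries, also from transduced cells, stood at 2266 and 2440.2. NOTCH2NLC, a human copy of part of NOTCH2 (RefSeq GRCh38.p14, chromosome 1, 149390621 to 149471833), had 171 and 179.5 in WT and 65.6 and 60.4 in GFP, a log2 change of -1.20 (SE 0.15, adjusted p = 0.0062). OVCH1, an ovochymase-type serine protease gene (chromosome 12, 29412474 to 29497686), had 94.8 and 137 in WT and 47.1 and 32.8 in GFP, a log2 change of -1.12 (SE 0.19, adjusted p = 0.0147). Both were lower in each GFP library than in either WT library, as the rule required. OVCH1 and RGPD1 met the level rule through WT alone, which favours a fall. NOTCH2NLC has near-identical relatives, as does RGPD1 (103 and 98.2 in WT, 47.1 and 29.7 in GFP), so the counts of both are uncertain.

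The remaining falls reached at least 0.83 in size on the log2 scale. The most abundant of these was LPP, a focal adhesion protein, at 962 and 1205 in WT and 634 and 556 in GFP. Adhesion and cell shape were also represented by the adhesion molecule ALCAM (634 and 494 in WT, 297 and 277 in GFP), the teneurin TENM1 and RND3, a small GTP-binding protein (434 and 355 in WT, 203 and 213 in GFP). KCNIP4, a potassium channel subunit, was at 657 and 640.1 in WT and 263 and 368 in GFP, and lower again in RBMXL3, at 152 and 153. GNG12, a G protein gamma subunit, had GFP replicates of 306 and 509 under WT values of 762 and 684. NCR3LG1, a ligand of the natural killer receptor NKp30, the protease inhibitor SERPINB3, the calcium-binding protein NECAB1, LUZP2 and the noncoding RNA LINC00641 completed the list. SERPINB11, on the other strand, covers 34.9% of the exon length of SERPINB3. All 30 genes were also called by edgeR, by DESeq2 and in the fit on the 4 libraries. The 29 with a known GC content and length were called after correction for both. With no filter on low values limma called 0 genes. The 30 were picked as the largest calls from the same reads, which favours such overlap. With summed TPM the 28 that could be tested kept their direction, with limma adjusted p from 0.084 to 0.84.

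**Figure D2:**
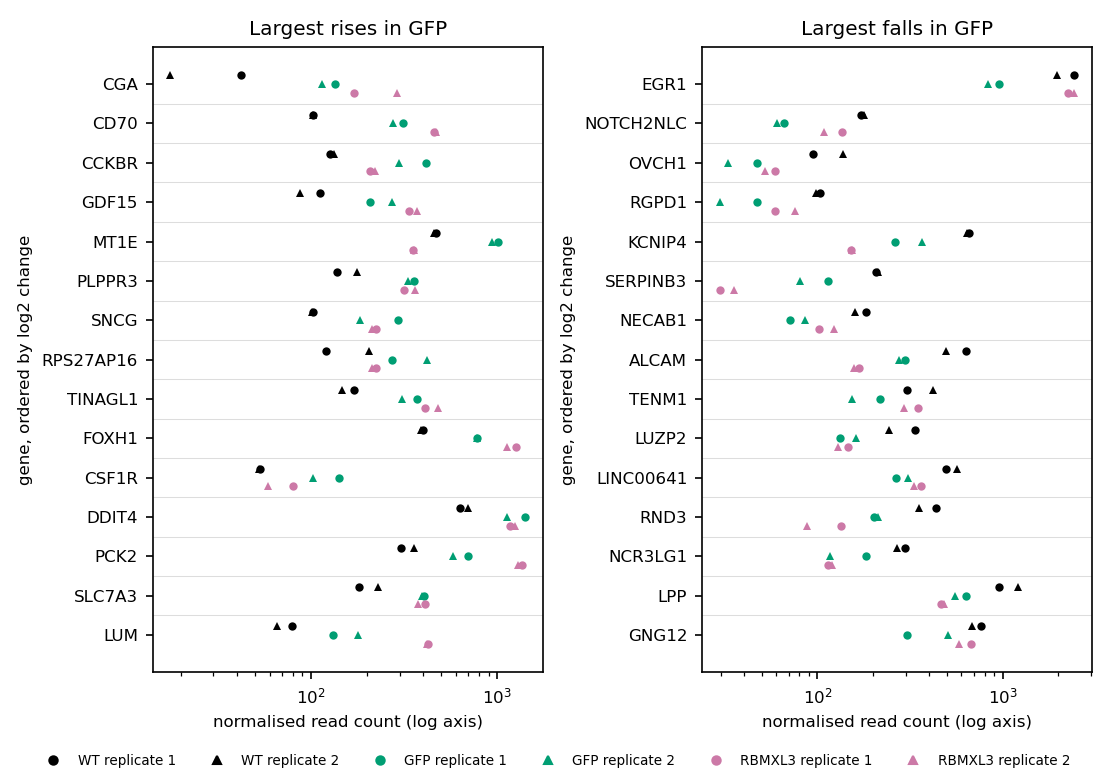
Normalised read counts (log axis) of the 15 largest rises and 15 largest falls in each library, with circles for replicate 1 and triangles for replicate 2. The GFP points lie to the right of the WT points for every rise and to the left for every fall, which the naming rule required. The RBMXL3 points of EGR1, at 2266 and 2440.2, lie with WT.

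Limma called 4 genes of the trophoblast list higher and 1 lower among 10 compared (50% called, against 4.06% of all genes compared). CGA, CYP19A1 and HSD3B1 met the level rule through GFP alone, which favours a rise. Among the other 7 genes 2 were called higher and 1 lower, with a median log2 change of 0.31, against -0.01 over all genes compared. Beside CGA, the calls were CYP19A1, the aromatase that makes oestrogen (15.2 and 25.2 in WT, 80.4 and 61.5 in GFP, log2 change 1.11), and the transcription factors GATA2 (122 and 119.97 in WT, 249.5 and 222 in GFP, 0.84) and GATA3 (211 and 187 in WT, 313 and 308 in GFP, 0.59). TFAP2A, a transcription factor of trophoblast and neural crest, fell from 748 and 655 to 495 and 441, a log2 change of -0.56. The same 5 genes were called after the correction for GC content and length, and CGA, CYP19A1 and GATA2 in the 4-library fit. ERVFRD-1, the fusion protein syncytin-2, was under the level rule at 17.8 and 25.2 in WT and 90.6 and 49.8 in GFP, with a limma adjusted p of 0.0247. Not all of the list moved. The cytokeratin KRT7 had 2223 and 2371 in WT and 2392 and 2158 in GFP. The chorionic gonadotropin beta genes CGB5 and CGB8 had 0 reads in all 4 libraries, and CGB3 had 0 in 3 of them and a normalised count of 0.924 in GFP replicate 1. These beta genes are near-copies whose reads may be lost in counting.

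All 5 fibroblast markers that passed the level rule were called higher, against 1.9% of all genes compared, with a median log2 change of 0.65. They were the collagens COL1A2 (8093 and 9275 in WT, 12709 and 11241 in GFP, log2 change 0.46), COL1A1 (206 and 235 in WT, 384 and 335 in GFP, 0.65) and COL3A1 (114 and 124 in WT, 207 and 214 in GFP, 0.71), with LUM and the surface protein THY1. The summed level of the 10 listed markers was 9125 and 10249 in WT and 14403 and 12736 in GFP. The defining markers DCN, at most 1.69, and FAP, at most 0.924, were at or near 0 in all 4 libraries, and PDGFRA was between 5.03 and 17.0. COL1A2 thus made up most of the sum. The part of other cells in these rises was not tested. In the fit on the 4 libraries 2 of the 5 stayed called, and 4 after the correction for GC content and length. Fewer or more cells of a kind and less or more RNA per cell cannot be told apart in bulk samples.

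Metallothioneins are small cysteine-rich proteins that bind zinc and copper. MT1E stood at 467 and 461 in WT, at 1015 and 938 in GFP, and at 351 and 359 in RBMXL3. Its log2 change from WT to GFP was 1.03 with an SE of 0.11 (limma adjusted p = 0.00207). MT1G showed the same order, at 552 and 489.95 in WT, at 922 and 871 in GFP, and at 246 and 315 in RBMXL3. MT1H, a low gene that passed the level rule through GFP alone, had 12.7 and 20.1 in WT and 55.4 and 75.2 in GFP. Of 9 genes in the list, 4 were called higher (MT1E, MT1F, MT1G and MT1H) and 0 lower, against 1.9% and 2.16% of all genes compared. MT1H and MT1M entered through GFP alone, and among the other 7 genes 3 were called higher, with a median of 0.38. The major form MT2A had 1105 and 862 in WT and 1261 and 1302 in GFP and was not called (adjusted p = 0.0918). The zinc exporter SLC30A1, another target of the zinc-sensing factor MTF1, had a log2 change of 0.11 (adjusted p = 0.736). MT1 genes are near-copies of each other, so reads may be split between them. After the correction 3 of the 4 were called, without MT1F, and the median of all 9 genes went from 0.44 to 0.28. In the 4-library fit the same 3 were called.

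Cytosolic ribosomal proteins, the protein parts of the translation machinery, leaned upward. Of 84 genes, 25 were called higher (29.8%, against 1.9% of all genes compared) and 0 lower. Of the 84, 82 had a positive change, against 5927 of all 12447 genes, and the list's median was 0.39. The summed level of the list was 1315413 and 1413028 in WT and 1797036 and 1812615 in GFP. In RBMXL3 it was 1450629 and 1339407. The 2 GFP libraries were above the other 4. Among the called genes, RPS3 had 26908 and 29111 in WT and 41316 and 39682 in GFP (log2 change 0.53), and RPL11 had 16038 and 15987 in WT and 21013 and 21273 in GFP (0.40). RPL8, the most abundant of the list, had a change of 0.41 and was not called (limma adjusted p = 0.115). In 74 of the 84 both GFP libraries exceeded both WT libraries, which held for 24.2% of all genes compared. These genes are short, with a median transcript of 1864.5 bases. After the correction for GC content and length the median was 0.30 and 15 were called, 12 of them among the 25. In the 4-library fit 4 were called. The list's median was 0.45 without GFP replicate 1 and 0.36 without GFP replicate 2. Many ribosomal protein genes have processed copies, which makes single counts uncertain.

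Mitochondrially encoded genes did not follow the groups. Their summed level was 750210.4 and 557900.1 in WT and 323979 and 676872 in GFP. MT-CO1, a subunit of cytochrome c oxidase, had 204212 and 150714 in WT and 77552 and 173900.3 in GFP. GFP replicate 1 was the lowest library and GFP replicate 2 lay within the WT range. Of 15 genes limma called 0, with 2 at an unadjusted p under 0.05, and edgeR and DESeq2 called 0. The median log2 change was -0.41, and it was 0.10 without GFP replicate 1 and -0.90 without GFP replicate 2.

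**Figure D3:**
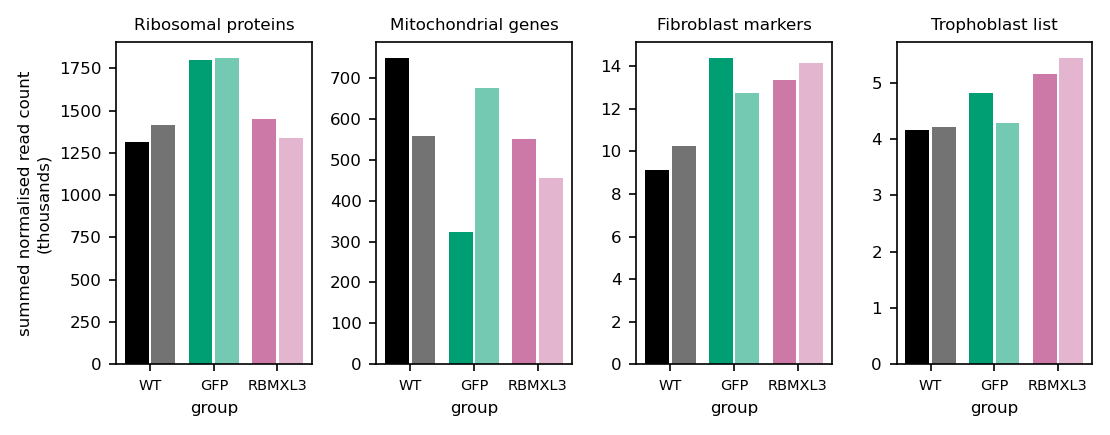
Summed normalised read counts of 4 gene lists in each library (dark bars replicate 1, pale bars replicate 2). Ribosomal protein genes were highest in the 2 GFP libraries, at 1797036 and 1812615, whereas the mitochondrial sum of GFP replicate 1, at 323979, was the lowest of all 6 libraries.

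Genes of the integrated stress response leaned upward. Limma called 6 of 30 higher (20%, against 1.9% of all genes compared) and 0 lower. Of the 30, 24 had a positive change, against 5927 of all 12447 genes, and the list's median was 0.34. PHGDH and SHMT2, enzymes of serine and glycine synthesis, had 4637 and 4839 in WT and 6613 and 6382 in GFP (log2 change 0.45), and 7663 and 7513 in WT and 10872 and 9916 in GFP (0.45). CHAC1, which breaks down glutathione, had 229 and 196 in WT and 379.8 and 348 in GFP (0.72), and DDIT4 had 629.9 and 699.7 in WT and 1414 and 1126 in GFP (0.90). STC2 and the transcription factor CEBPB were the other calls. ATF4 itself, whose protein is controlled mainly at translation, had 8433 and 7991 in WT and 9468 and 9927 in GFP and was not called (adjusted p = 0.168). The tRNA synthetases WARS1 (log2 change -0.19) and GARS1 (0.01) were not called either. After the correction for GC content and length 8 genes were called higher, among them PSAT1 and MTHFD2. ATF5 was called lower, at -0.44 with a limma adjusted p of 0.0393, and the list's median was then 0.22. In the 4-library fit DDIT4 and CHAC1 stayed called. The list's median was 0.30 without GFP replicate 1 and 0.26 without GFP replicate 2.

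Of 32 p53 targets, 4 were called higher (12.5%, against 1.9% of all genes compared) and 0 lower, with a median of 0.22. CDKN1A, the inhibitor of cyclin-dependent kinases known as p21, had 445 and 420.3 in WT and 729 and 756 in GFP (log2 change 0.75 with an SE of 0.11, limma adjusted p = 0.011). FDXR, the mitochondrial ferredoxin reductase, had 809 and 828 in WT and 1198 and 1273 in GFP (0.58), and DDB2, a DNA damage recognition protein, had 390.3 and 376 in WT and 559.98 and 521 in GFP (0.47). GDF15 was the fourth. MDM2, a direct p53 target that degrades p53, had 6856 and 6484 in WT and 5674 and 6391 in GFP, a log2 change of -0.15 (adjusted p = 0.402). The same 4 genes were called after the correction, where the list's median was 0.12. DDB2 was not called in the 4-library fit (limma adjusted p = 0.109). The list's median was 0.23 without GFP replicate 1 and 0.16 without GFP replicate 2.

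Sterol and fatty acid synthesis genes leaned upward, with 27 of 30 positive, against 5927 of all 12447 genes compared, and a median of 0.20. The share called higher was 10%, against 1.9% of all genes compared. Limma called 3 higher and 0 lower: FDFT1, which makes squalene (7690.3 and 7116 in WT, 9933 and 9991 in GFP, log2 change 0.43), the sterol isomerase EBP (649 and 622 in WT, 1069 and 863 in GFP, 0.58) and FDPS (0.36). In the 4-library fit 0 of the 3 stayed called. The median of the list was 0.21 without GFP replicate 1 and 0.32 without GFP replicate 2. After the correction 5 genes were called higher, with FDFT1 as the one shared. The fatty acid synthase FASN had 23893 and 27340.5 in WT and 34897 and 25567 in GFP, where GFP replicate 2 lay within the WT range.

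Immediate early genes are induced by serum and growth factors without new protein synthesis. Of 24, 4 were called lower (16.7%, against 2.16% of all genes compared) and 0 higher. Beside EGR1 these were KLF6 (2118 and 1955 in WT, 1284 and 1538 in GFP, log2 change -0.53), CCN1 (1212 and 1123 in WT, 836 and 799 in GFP, -0.50) and CCN2 (772 and 856 in WT, 599.7 and 556 in GFP, -0.48). The last pair encode secreted matrix-associated proteins that are also targets of YAP. The 20 genes not called showed no common direction, with 12 positive and 8 negative and a median of 0.03. FOS had 89.7 and 102 in WT and 121 and 112 in GFP (limma adjusted p = 0.35), JUN had 141 and 128 in WT and 87.8 and 95.4 in GFP (adjusted p = 0.0966), and KLF4 changed by 0.02 (adjusted p = 0.938). The same 4 were called after the correction, and EGR1 alone stayed called in the 4-library fit. ERK output and feedback genes, such as SPRY4 (log2 change -0.25) and PHLDA1 (-0.10), had 0 of 16 called by limma, 6 at an unadjusted p under 0.05, 0 by edgeR and 1 higher by DESeq2.

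Responses to foreign nucleic acid showed few differences. Of 42 interferon response genes 17 passed the level rule, and limma called 0 of them, with 6 at an unadjusted p under 0.05, 0 by edgeR and 1 higher by DESeq2. Their median change was 0.02. Over all 12447 genes compared, 2966 had an unadjusted p under 0.05 in limma. IFITM3 had 8822 and 8154 in WT and 10702 and 8347 in GFP, and MX1 had 534 and 500.01 in WT and 564 and 491 in GFP. IFIT1 was low throughout, at 17.8 and 18.5 in WT and 34.2 and 34.96 in GFP. Of the sensors of RNA and DNA 8 of 19 passed, and limma and edgeR called 0, with 1 at an unadjusted p under 0.05, while DESeq2 called 1 lower. The nearest to a limma call was the RNA-activated kinase EIF2AK2, at 3866 and 3502 in WT and 2618 and 3001 in GFP (log2 change -0.39, adjusted p = 0.0546). Retrovirus restriction factors had 0 of 9 called by limma and edgeR, 1 at an unadjusted p under 0.05 and 1 lower by DESeq2. The zinc finger antiviral protein ZC3HAV1 had a change of -0.37 (limma adjusted p = 0.054).

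Of 25 genes that silence inserted DNA, DNMT3L was called higher, and ATRX and SMC5 lower (12% called, against 4.06% of all genes compared). DNMT3L, a partner of the DNA methyltransferases in germ cells, had 765 and 896 in WT and 1444 and 1326 in GFP (log2 change 0.72, limma adjusted p = 0.011). The chromatin remodeller ATRX had 2321 and 2377 in WT and 1486 and 1601 in GFP, against 2326 and 2341 in RBMXL3 (log2 change -0.60, adjusted p = 0.0125), and SMC5 changed by -0.53 (adjusted p = 0.0441). TRIM28 had 29255 and 30696 in WT and 36933 and 30618 in GFP and was not called. Of 23 integration cofactors and end joining genes limma called 0, with 6 at an unadjusted p under 0.05, 0 by edgeR and 1 in each direction by DESeq2. After the correction for GC content and length DNMT3L and ATRX stayed called, and SMC5 did not (adjusted p = 0.11). The same held in the 4-library fit, where SMC5 had a limma adjusted p of 0.0844. The median of the silencing list was -0.04 without GFP replicate 1 and 0.08 without GFP replicate 2.

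POU5F1 had 31659.6 and 27459.6 in WT and 29921 and 34996 in GFP, and NANOG had 19609 and 17582 in WT and 18297 and 20173 in GFP, so the groups overlapped for both. Of 27 genes in the list, TCL1A, an AKT cofactor, and DND1, an RNA-binding protein of germ cells, were called higher, and the stem cell factor receptor KIT was called lower (11.1% called, against 4.06% of all genes compared). DND1 met the level rule through GFP alone, and it was not called in the 4-library fit (limma adjusted p = 0.065) or after the correction (0.113). Without GFP replicate 1 the list's median was 0.07, and without GFP replicate 2 it was -0.03. KIT had 2578 and 2403 in WT and 1802 and 1926 in GFP, a log2 change of -0.41 (limma adjusted p = 0.0407), which was not called in the 4-library fit (adjusted p = 0.112) or after the correction (0.07). The median of the list was 0.02, and it was -0.08 after the correction. DND1 overlaps WDR55 on the other strand over its whole exon length. PRAME, the called gene of 2 cancer testis antigens compared, had 6095 and 6342 in WT and 9342 and 8711 in GFP (log2 change 0.54, adjusted p = 0.0166). PRAME was not called in the 4-library fit (limma adjusted p = 0.0532). SOX2, which marks embryonal carcinoma and not seminoma, stayed under the level rule, between 11.7 and 31.3, and DNMT3L was the called gene of 2 embryonal carcinoma markers compared.

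The TNF, adhesion, proliferation and unfolded protein response lists gave 1 to 3 calls each. The shares called were 18.2%, 10.7%, 3.03% and 5%, against 4.06% of all genes compared. The TNF superfamily had CD70 and TNFSF9, the ligand of CD137 (1019 and 1049 in WT, 1516 and 1899 in GFP, log2 change 0.70), among 11 genes. Adhesion and matrix had ITGA5 higher (625 and 531 in WT, 861 and 836 in GFP, 0.54) and the integrins ITGA6 (10152 and 9711 in WT, 6373 and 6964 in GFP, -0.57) and ITGAV (-0.43) lower, among 28. ITGAV was not called in the 4-library fit (limma adjusted p = 0.102) or after the correction (0.174), and ITGA5 was not called in the 4-library fit (0.0653). The median of the adhesion and matrix list was -0.10 without GFP replicate 1 and 0.10 without GFP replicate 2. Proliferation had MCM2, a subunit of the replicative helicase, higher among 33 (2493 and 2624 in WT, 4303 and 3177 in GFP), with TOP2A at -0.31 (limma adjusted p = 0.118), and 7 were called higher and 6 lower without GFP replicate 2. The unfolded protein response had SDF2L1 higher among 20, and it was not called after the correction (limma adjusted p = 0.199). Nor was it called in the 4-library fit (limma adjusted p = 0.0792) or by edgeR (adjusted p = 0.0544).

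Limma called 0 in each of the remaining lists, and over all 12447 genes compared 2966 had an unadjusted p under 0.05. For heat shock chaperones, 0 of 23 were called, 7 had an unadjusted p under 0.05, and edgeR and DESeq2 called 0. For NRF2 targets these were 0 of 22, 6, 0 by edgeR and 1 by DESeq2, and for hypoxia and glycolysis 0 of 33, 6, 0 and 1. For NF-kB targets they were 0 of 14, 3, 0 and 0, and for drug efflux transporters 0 of 7, 2, 0 and 0. The median log2 change of hypoxia and glycolysis genes was 0.09 without GFP replicate 1 and 0.20 without GFP replicate 2. In the same 2 fits it was 0.08 and 0.12 for NRF2 targets, and 0.02 and 0.04 for chaperones. Later germ cell genes had 0 of 5 called, 2 at an unadjusted p under 0.05, and 0 by edgeR and DESeq2. Markers of endoderm (2 genes compared), mesoderm and ectoderm (4), endothelium (2) and Sertoli and Leydig cells (3) had 0 at an unadjusted p under 0.05 and 0 calls by all 3 tools. None of the 10 leukocyte markers passed the level rule, and their summed level was at most 55.1 in the 4 libraries.

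**Figure D4:**
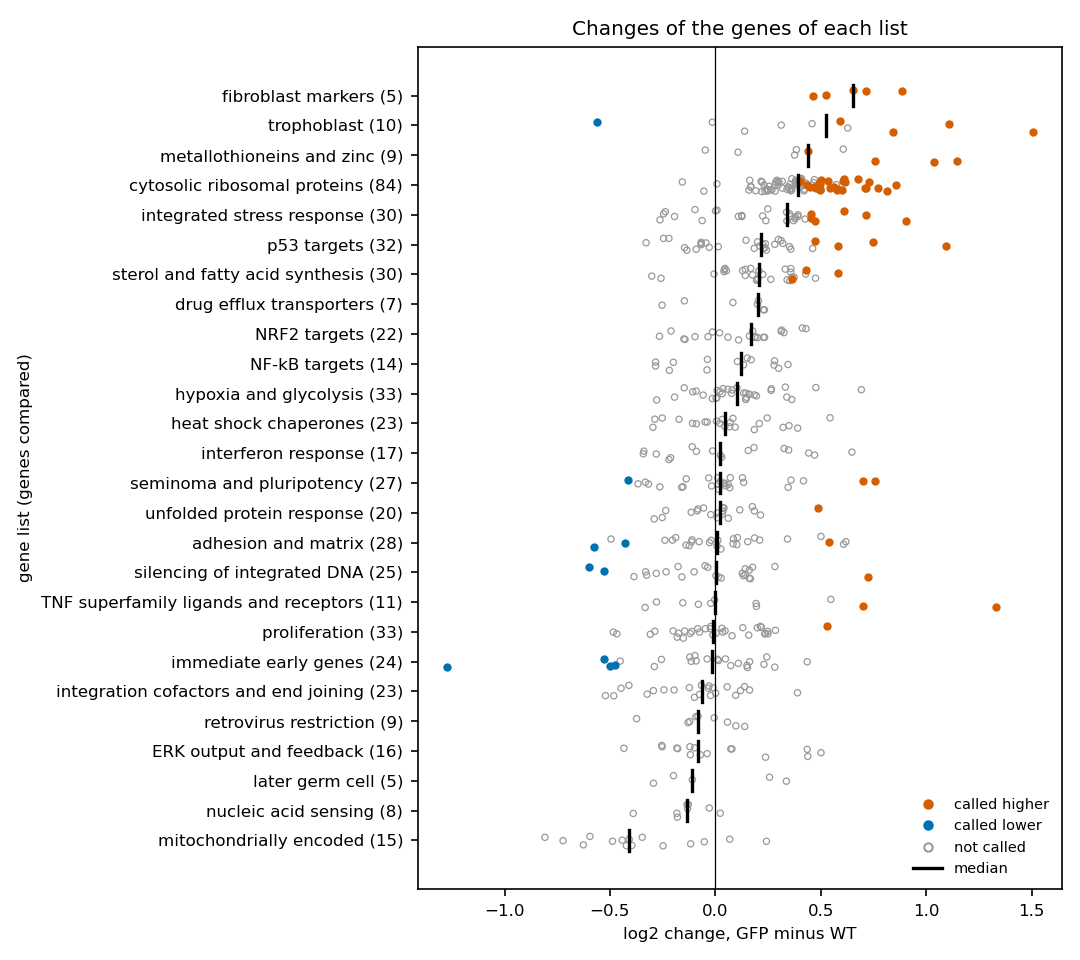
Log2 change of GFP against WT for each gene compared in the lists with at least 5 such genes, 1 point a gene, ordered by the list's median (black bar). Ribosomal proteins, with a median of 0.39, lie almost wholly to the right of 0, while the interferon list, at 0.02, and the seminoma list, also at 0.02, are centred near it.

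The called genes differed in sequence make-up. Genes called higher had a median transcript GC content of 57.3% and a median length of 2148 bases, genes called lower 40.4% and 6800, and genes not called 48.1% and 3692.5. The genes were put in 5 bins of about equal size. In the bin with the lowest GC content, 3 were called higher and 140 lower, with a median log2 change of -0.18, and in the highest bin 108 and 3, with 0.13. In the shortest bin 120 were called higher and 4 lower, with a median of 0.13, and in the longest 15 and 156, with -0.16. Within every bin of GC content the median was higher for the shortest genes than for the longest, as in the highest GC bin, where it went from 0.21 to 0.02.

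The GC pattern was stronger in GFP replicate 1 than in GFP replicate 2. GFP replicate 1 deviated from the mean of the 4 libraries by a median of -0.18 in the lowest GC bin and 0.13 in the highest, whereas GFP replicate 2 was at 0.02 and 0.01. The WT libraries ran the other way, from 0.10 to -0.08 in replicate 1 and from 0.06 to -0.06 in replicate 2. GFP replicate 2 was thus also below both WT libraries in the lowest bin and above both in the highest. The length pattern was in both GFP libraries, at 0.04 to -0.04 from the shortest to the longest bin in GFP replicate 1 and 0.11 to -0.11 in GFP replicate 2. The part of library preparation in these patterns was not tested. When splines of GC content and log2 length were fitted to each library and removed, 300 of 12301 genes were called (2.44%), 165 higher (1.34%) and 135 lower (1.1%), and 217 of them were among the 505. None of the 505 was called in the opposite direction.

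**Figure D5:**
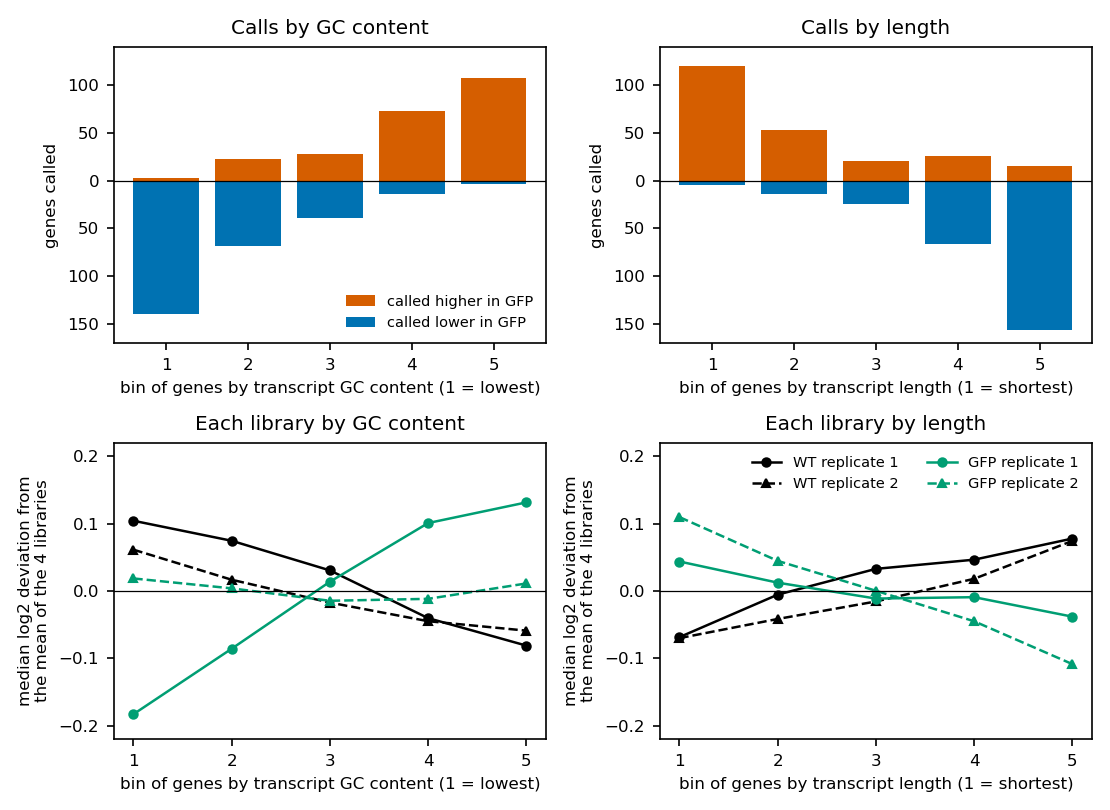
Top, genes called higher (above 0) and lower (below 0) in GFP by bin of transcript GC content and of length (5 bins each). Bottom, median log2 deviation of each library from the mean of the 4 libraries: GFP replicate 1 runs from -0.18 to 0.13 over the GC bins and GFP replicate 2 from 0.02 to 0.01, while over the length bins both GFP libraries fall. Over the GC bins WT replicate 1 runs from 0.10 to -0.08 and WT replicate 2 from 0.06 to -0.06.

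The same make-up showed in the chromosomes. The median log2 change was highest on chromosome 22 (0.10, 265 genes, median GC content 56.1%) and lowest among the autosomes on chromosome 13 (-0.12, 217 genes, 42.2%). On chromosome 16, 20 of 548 genes were called higher and 3 lower (4.2% called), and on chromosome 5, 5 of 577 and 22 (4.68%). Both shares were near the 4.06% of all genes compared, and it was the direction of the calls that differed. After the correction 11 were called higher and 2 lower on chromosome 16, and 8 and 13 on chromosome 5. After the correction the medians of chromosomes 22 and 13 were 0.03 and -0.06. Abundance mattered less, since 3.13% of the least abundant of 5 bins and 5.26% of the most abundant were called, with medians of 0.03 and -0.03.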

How the data were processed

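The gene table holds normalised read counts as a signal: every nonzero value (145320, tolerance 0.01) was a whole multiple of 1 step per library, so the authors divided whole reads by 1 size factor per library. The deposited transcript table holds TPM. The submitters' processing notes name Trim Galore 0.6.10, STAR 2.7.11a, DESeq2, Salmon 1.10.2 and GRCh38, without roles. The counter, the annotation and any strand setting are not given in the sources used here. Gene coordinates are GENCODE 29 (GRCh38) unless RefSeq is named, and 0 table columns belonged to no sample.

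Values were divided by a common factor of 23.9, which brings them to the scale of CPM. Genes at 1 or more in at least 2 of 6 libraries (14292) were tested on log2(value + 1) with limma 3.58.1 (R 4.3.3), 1 coefficient per group over all 6 libraries, two-sided, with Benjamini-Hochberg adjustment over all genes tested. Of these, 524 (3.67%) were called. Log2 changes are on this scale, which understates changes of low genes. Tests were checked on simulated data. Alternatives included edgeR 4.0.16, DESeq2 1.42.0 and summed TPM. GC content and length are those of the longest GENCODE 29 transcript.

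Named genes were the 15 largest rises and 15 largest falls among called genes with groups that did not overlap and a mean of at least 100 in the higher group, the called genes of 33 lists, and up to 4 abundant further genes per list described. JUN, FOS, IFIT1, MX1, ATF5, PSAT1 and MTHFD2 were chosen after their values were seen. Genes and lists were chosen with earlier results of these data known.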

Additional observations from a re-analysis of the deposited data

How the results depend on the processing

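Counts below are of the 12447 genes compared (505 called, 236 higher and 269 lower). With no filter on low values limma called 0, with 0 higher and 0 lower (2688 at an unadjusted p under 0.05), and with summed TPM also 0, 0 and 0 (1951), where edgeR called 452 and DESeq2 694. Quantile normalization gave 315 calls, 165 higher and 150 lower. Equal totals over tested genes gave 127 higher calls of 339 (37.5% higher, against 46.7%), and leaving out mitochondrial genes 142 higher of 396 (35.9%). With only the 4 GFP and WT libraries 143 were called, 67 higher and 76 lower. Requiring a log2 change of at least 1 left 18, 12 higher and 6 lower. Leaving out 1 library gave between 0 and 2715 calls, 0 to 1232 higher and 0 to 1483 lower, and the lone sample is then assumed to vary like the other groups. Without WT replicate 2 85.0% of the calls were higher, and without GFP replicate 1 36.1%. The correction for GC content and length, chosen after seeing the data, gave 300 calls with 165 higher and 135 lower (55% higher), and with only the 4 libraries 107, 66 higher and 41 lower (61.7%). The cause of each change was not tested.

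With the replicate number as a block 185 genes were called, 80 higher and 105 lower, 184 of them among the 505, and with the correction and the block 103, 62 higher and 41 lower (60.2%). The samples share only a number: the deviations of same-numbered libraries correlated at -0.16 between WT and GFP, 0.03 between WT and RBMXL3 and -0.09 between GFP and RBMXL3. No alternative called any of the 505 in the opposite direction. Single-gene results called in the main fit kept their direction in all alternatives run, which does not cover genes that were not called. Of the values of the single-gene results, 676 lost the call and 1234 did not change side. With 2 libraries a group, small changes of low genes were not detectable.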

Other observations

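Outside the gene lists, and chosen after its values were seen, C3, the central complement component, was higher in GFP. It had normalised read counts of 34.7 and 33.6 in WT and 105 and 83.7 in GFP, a log2 change of 1.02 (limma adjusted p = 0.0125), and 104 and 97.3 in RBMXL3. C3 met the level rule through GFP alone, which favours a rise.

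Of the genes called lower, 200 had a promoter window of 250 bases, and 7 of these windows held a CArG box (3.5%). Of the genes called higher 2 of 164 did (1.2%), and of those not called 86 of 9379 (0.917%). For the TATA box the shares were 9.0%, 6.1% and 4.63%, and for the CRE 4.5%, 1.83% and 3%. Of 10 motifs searched, these 3 were chosen after their shares were seen, and the differences were not tested.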
